A study of Mus musculus with 4 samples.

Results

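Molecular chaperones bind proteins that are unfolded or partly folded and help them to fold, to assemble or to be passed on for degradation. HSP70 chaperones cycle on and off their clients by hydrolysing ATP, J proteins start that cycle and nucleotide exchange factors of the HSP110 and BAG families end it, while HSP90 acts later on kinases and steroid receptors with its own co-chaperones. Ring-shaped chaperonins, HSP60 in mitochondria and TRiC in the cytosol, enclose their clients, and small heat shock proteins hold aggregating ones. Many of these genes are induced together by the heat shock factor HSF1, which binds heat shock elements built from repeats of the bases GAA in alternating orientation.

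A list of 43 genes of these families was followed in the mouse mesenchymal stem cell line C3H10T1/2. For 6 hours, 2 cultures were exposed to BMP3, a secreted protein of the TGF-beta superfamily, made as the human recombinant form and given at 100 ng/ml, while 2 control cultures were not treated. Each of these 4 biological replicates gave 1 Affymetrix 3' expression array, and the question put by the design is which transcripts differ between treated and untreated cells. A gene was taken as measured where a probe set was annotated to its symbol alone, and its brightest probe set, by the mean of the 4 arrays, stood for it. Of the 43 listed genes, 40 were measured, among 18193 genes in all, and Hsp90ab1, Ptges3 and Hsf1 were not analysed here. Values are log2 intensities, and a difference is the BMP3 mean minus the control mean in log2 units ± SE, with a 95% interval where shown. Some members act outside the cytosol, namely Hspa9, Hspd1, Hspe1, Trap1 and Dnaja3 in mitochondria and Hspa13 and Dnajc3 in the endoplasmic reticulum.

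The labelled cell type was checked against marker genes. On the 4 arrays 10 of 11 mesenchymal markers averaged a log2 value of 6 or more, against 0 of 7 endothelial, 0 of 7 haematopoietic, 0 of 6 neural and 0 of 6 skeletal muscle markers, 1 of 7 epithelial markers (Epcam) and 1 of 4 adipocyte markers (Fabp4). The mesenchymal marker below 6 was Nt5e, with a mean of 2.54. Arrays correlated with each other at Pearson's r of 0.964 to 0.988 across the 17152 probe sets averaging 6 or more, which are not independent replicates. The 2 BMP3 arrays correlated at 0.978 and the 2 control arrays at 0.988. Between the groups, arrays of the same replicate number correlated at 0.980 and 0.981, and the others at 0.978 and 0.964. The BMP3 arrays were thus no closer to each other than to the control array of the same number. Some control probe sets also differed between the groups. The 18S ribosomal RNA probe sets averaged 8.99 and 9.90 on BMP3 arrays and 11.41 and 10.50 on control arrays. The Dap poly-A spike-in averaged 9.13 and 8.85 on BMP3 arrays and 10.39 and 9.86 on control arrays. Lys, Phe and Thr poly-A spike-ins were likewise lower on both BMP3 arrays than on both control arrays. Hybridization spike-ins overlapped, at 11.48 and 11.62 on BMP3 arrays and 11.57 and 11.61 on control arrays. The part of these controls in the differences below was not tested. Fewer cells expressing a gene and less RNA per cell cannot be told apart in such bulk samples.

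The promoters of some members hold the letters of a heat shock element, and the few shown here come from genes whose values are given below. RefSeq promoter windows (GRCm38.p6) were found for 35 members, and the 250 bases before the start were searched on both strands, a gene counting where the window of any of its annotated starts held a match. A 3-unit element, GAANNTTCNNGAA or its reverse complement TTCNNGAANNTTC, was found for 3 of these 35 members (8.57%), Hspd1, Hspe1 and Dnajb6, against 0.514% of 27025 genes. A 2-unit element, GAANNTTC or TTCNNGAA, which every 3-unit element contains, was found for 13 members (37.1%), against 14.5% of all genes. The CCAAT box, CCAAT or ATTGG, was found for 16 members (45.7%) and 37.5% of all genes. Such a match is a description of the letters and not a measured site, and the printed elements are in capitals, 5′ to 3′ on the strand of the gene.
Hspd1 (chr1:55088054-55088081, minus strand): gggccTTCCGGAAGGTTCTAGAAcggac
Hspe1 (chr1:55088054-55088081, plus strand): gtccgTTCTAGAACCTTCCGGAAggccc
Dnajb6 (chr5:29735847-29735869, plus strand): tccgaGAATCTTCCGGAAcgcta
Hspb1 (chr5:135887797-135887834, plus strand): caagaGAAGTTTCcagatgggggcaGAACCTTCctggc
Hspa1a (chr17:34972217-34972276, minus strand): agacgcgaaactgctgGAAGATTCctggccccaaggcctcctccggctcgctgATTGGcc
Hspa1b (chr17:34959299-34959358, minus strand): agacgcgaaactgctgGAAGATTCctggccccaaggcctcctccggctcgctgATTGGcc
Hspd1 and Hspe1 lie head to head on chromosome 1, their annotated bodies overlapping by 96 bases. The 28 bases printed read as 2 overlapping 3-unit elements on either strand, and they lie in the window of Hspe1 and in that of the inner of 2 annotated Hspd1 starts. The window of the outer Hspd1 start, 55088194 to 55088493, does not reach them and holds 0 matches to the 3 motifs. Hspa1a and Hspa1b, neighbours on chromosome 17, share 247 of the 250 bases before their starts and each of the 60 bases printed, which hold a 2-unit element and a CCAAT box in capitals.

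Chaperone genes had mostly small differences that leaned higher in BMP3 arrays, and none passed the test. By limma, with p-values adjusted over 45037 probe sets after Benjamini and Hochberg, 0 of the 40 members had an adjusted p under 0.05 (smallest 0.224, for Stip1), and 0 of 18193 genes did (0% called). Differences were above 0 for 30 members (75%) and below 0 for 10 (25%), against 42.4% and 57.6% of all genes and 53.3% and 46.7% of the 9185 genes averaging a log2 value of 6 or more. An unadjusted p under 0.05 was found for 9 of the 40 members, against 9.8% of all genes and 18.2% of the brighter genes. At that threshold 8 of the 40 members (20%) were higher and 1 (2.5%) lower in BMP3 arrays. The shares were 5.28% and 4.52% of all genes and 9.87% and 8.33% of the brighter genes. The brighter set is the nearer background, since 39 of the 40 members average 6 or more. It is not matched to the members by level, and many of them lie far above 6, such as Hspa8 at 16.12 and Cct4 at 15.49. When a 1.5-fold difference was required too, 1 member was higher, Hspa1a, and 0 were lower, against 2% and 2.83% of the brighter genes and 1.18% and 1.65% of all genes. Without control replicate 1, 5 members had an unadjusted p under 0.05.

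Both BMP3 arrays lay above both control arrays for 16 members (40%) and below them for 3 (7.5%), against 26.1% and 21.7% of the brighter genes and 16.7% and 20.6% of all genes, and the groups overlapped for 21. The median difference over the 40 members was 0.12, with a range of -0.39 (Hsf2) to 0.82 (Hspb1), beside a median of 0.02 over the brighter genes and -0.01 over all genes. It was 0.24 when BMP3 replicate 1 was left out and 0.07 when control replicate 1 was. Differences larger than the gap between the 2 arrays of either group were found for 14 members (35%), a share near the 33.4% of the brighter genes, and for 23.6% of all genes. Such a difference was higher in BMP3 arrays for 13 of the 40 members (32.5%) and lower for 1 (2.5%). The shares were 18.3% and 15% of the brighter genes and 10.8% and 12.8% of all genes. The median gap was 0.23 between the 2 BMP3 arrays and 0.09 between the 2 control arrays.

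**Figure D1:**
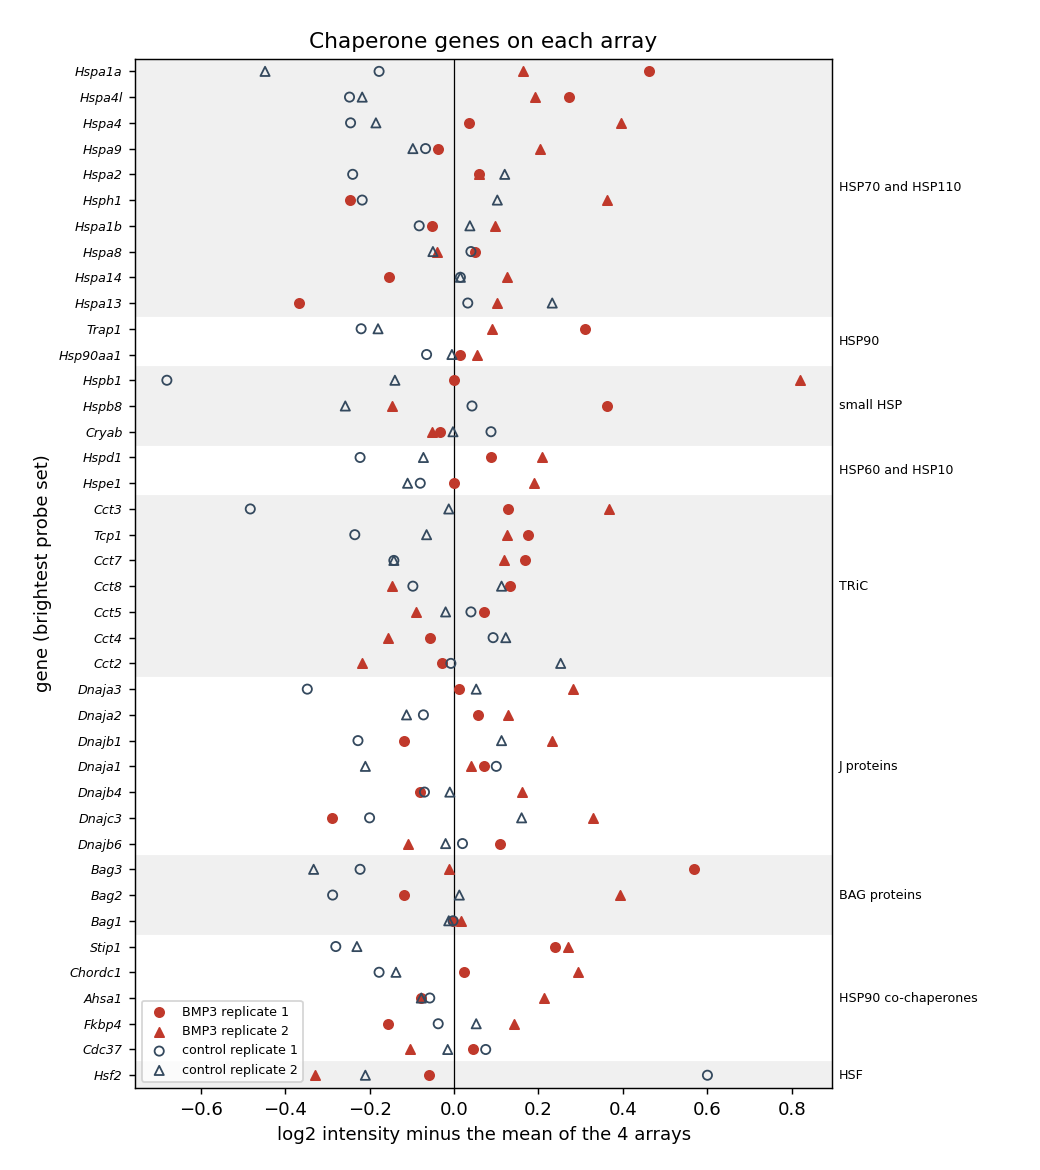
Log2 intensity of the brightest probe set of each of 40 chaperone genes on each array, as the deviation from that gene's mean of 4 arrays; genes run down the page by class, filled red symbols are BMP3 and open blue symbols control arrays, circles replicate 1 and triangles replicate 2. For Stip1 and Hspa4l both BMP3 arrays sit clear of both control arrays, while for Hsph1 and Dnajc3 the arrays of the same replicate number lie together.

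Among the HSP70 chaperones the stress-inducible gene Hspa1a had the largest difference of its class. It measured 7.90 and 7.60 in BMP3 arrays and 7.26 and 6.99 in control arrays. The groups did not overlap, and the difference was 0.63 ± 0.16 (interval 0.13 to 1.13), a fold of 1.55 (limma unadjusted p = 0.0273, adjusted p = 0.49). Its near-copy Hspa1b measured 13.26 and 13.41 in BMP3 arrays and 13.23 and 13.35 in control arrays at its brightest probe set. There the groups overlapped, and the difference was 0.04 ± 0.08 (interval -0.21 to 0.29). The other probe sets of Hspa1b had differences of 0.31 ± 0.11 and 0.27 ± 0.11, with both BMP3 arrays above both control arrays in each. Probe sets of 2 genes this alike may each bind transcripts of the other, so their difference in response is uncertain.

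Constitutive and organelle members of the HSP70 family differed less. Hspa8, the constitutive cytosolic HSP70, measured 16.17 and 16.08 in BMP3 arrays and 16.16 and 16.07 in control arrays, with a difference of 0.01 ± 0.06 (interval -0.17 to 0.19). Its 4 probe sets ran from -0.09 to 0.16. Hspa9, the mitochondrial HSP70 known as mortalin, measured 12.26 and 12.50 in BMP3 arrays and 12.23 and 12.20 in control arrays, and its groups were separated by less than the gap between the BMP3 arrays. Hspa2, known for its role in the testis, had a difference of 0.12 ± 0.15. Hspa14, part of a ribosome-associated complex, had -0.03 ± 0.12 and the endoplasmic reticulum member Hspa13 -0.26 ± 0.21, and the groups of each overlapped. A second Hspa14 probe set, averaging 9.70 against 9.95 for the brightest, gave -0.29 ± 0.09 (limma unadjusted p = 0.042). There both BMP3 arrays were below both control arrays.

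Of the HSP110 exchange factors, which release ADP from HSP70, Hspa4l and Hspa4 were higher on both BMP3 arrays than on both control arrays. Hspa4l measured 9.79 and 9.71 in BMP3 arrays and 9.27 and 9.30 in control arrays. This gap exceeded the spread within either group, and the difference of 0.46 ± 0.05 (interval 0.31 to 0.61) was a fold of 1.38 (limma unadjusted p = 0.00188, adjusted p = 0.26). All 5 probe sets of Hspa4l gave positive differences, and the 4 averaging 6 or more ran from 0.33 to 0.72. Hspa4 measured 12.54 and 12.90 in BMP3 arrays and 12.26 and 12.32 in control arrays (difference 0.43 ± 0.15, limma unadjusted p = 0.0611). Its 3 probe sets averaging 6 or more ran from 0.38 to 0.67, and BMP3 replicate 2 was the highest array in each, without which the Hspa4 difference was 0.24. Hsph1, a heat-inducible member, did not separate the groups, at 12.04 and 12.65 in BMP3 arrays and 12.07 and 12.39 in control arrays, and its other probe set had the opposite sign (-0.25 ± 0.28).

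HSP90 and its co-chaperones held the smallest p of the list. Stip1, the adaptor also called Hop that bridges HSP70 and HSP90, measured 11.05 and 11.08 in BMP3 arrays and 10.53 and 10.58 in control arrays. Replicates of a group differed by far less than the groups did, and the difference was 0.51 ± 0.04 (interval 0.39 to 0.64), a fold of 1.43 (limma unadjusted p = 0.000805, adjusted p = 0.224). Stip1 had 1 probe set, and with 2 arrays a group a small standard error is itself uncertain. Chordc1, an HSP90 co-chaperone that is induced by heat, measured 12.11 and 12.38 in BMP3 arrays and 11.91 and 11.95 in control arrays (difference 0.31 ± 0.11, limma unadjusted p = 0.0659). It too had both BMP3 arrays above both control arrays, and the difference was 0.18 without BMP3 replicate 2. Ahsa1, which stimulates the HSP90 ATPase, had 0.14 ± 0.12, Cdc37, which brings kinases to HSP90, -0.06 ± 0.07, and the immunophilin gene Fkbp4 -0.02 ± 0.13, and the groups of these 3 genes overlapped.

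Of the HSP90 genes themselves, the cytosolic, inducible Hsp90aa1 measured 15.04 and 15.08 in BMP3 arrays and 14.96 and 15.02 in control arrays. The groups were apart by only 0.07 ± 0.05 (interval -0.07 to 0.21), and its 3 probe sets averaging 6 or more ran from -0.08 to 0.28. Trap1, the mitochondrial HSP90, measured 10.57 and 10.35 in BMP3 arrays and 10.04 and 10.08 in control arrays. Both BMP3 arrays were above both control arrays, with a difference of 0.40 ± 0.10 (limma unadjusted p = 0.0218, adjusted p = 0.457). Its second probe set, named as one that can share probes with other sequences, gave 0.03 ± 0.04.

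The mitochondrial chaperonin pair with the head-to-head arrangement described above was higher on both BMP3 arrays. Hspd1, which encodes HSP60, measured 13.46 and 13.58 in BMP3 arrays and 13.15 and 13.30 in control arrays, a difference of 0.29 ± 0.08 (limma unadjusted p = 0.0355, adjusted p = 0.528). Hspe1, which encodes its lid HSP10, measured 13.65 and 13.84 in BMP3 arrays and 13.57 and 13.54 in control arrays, a difference of 0.19 ± 0.08 (limma unadjusted p = 0.0983) that was 0.10 without BMP3 replicate 2. This Hspe1 probe set is named as one that can share probes with other sequences. The other Hspe1 probe set, without that mark, gave 0.09 ± 0.06 with both BMP3 arrays above both control arrays. Among mitochondrial members Dnaja3, the J protein partner of Hspa9, had 0.29 ± 0.19 with overlapping groups. A dimmer Dnaja3 probe set gave -0.45 ± 0.17, with both BMP3 arrays below both control arrays.

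**Figure D2:**
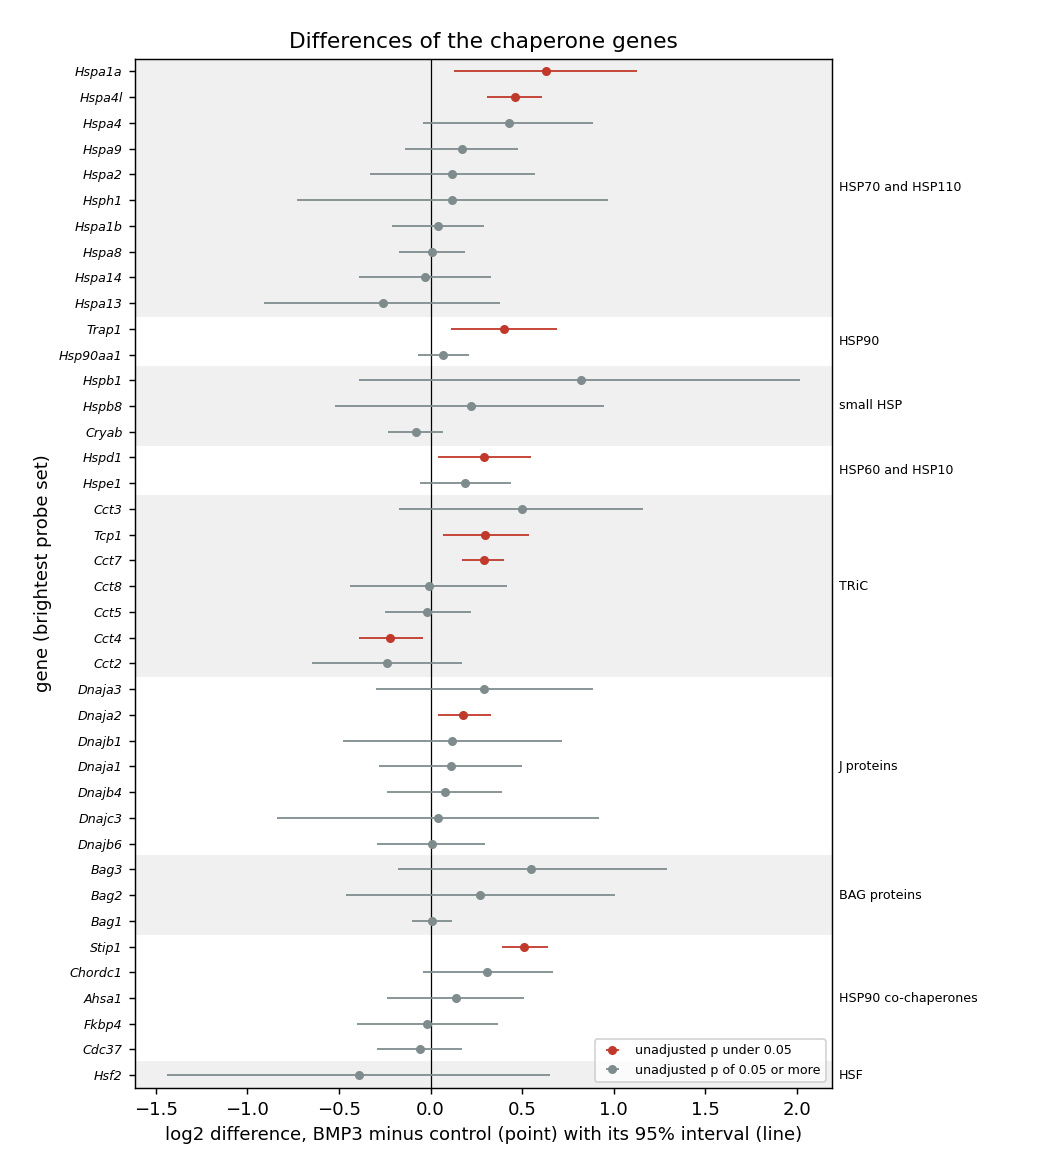
Log2 difference, BMP3 minus control, of each measured chaperone gene (point) with its 95% interval from limma (line); genes run down the page by class, and red marks an unadjusted p under 0.05. Of the 40 intervals, 31 include 0, and the 9 that do not are Hspa1a, Hspa4l, Trap1, Hspd1, Tcp1, Cct7, Dnaja2 and Stip1 above 0 and Cct4 below.

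The 7 measured subunits of TRiC, the cytosolic ring that folds actin and tubulin, did not differ alike. Cct7 measured 13.21 and 13.16 in BMP3 arrays and 12.90 in both control arrays, a difference of 0.29 ± 0.04 (limma unadjusted p = 0.00405, adjusted p = 0.301), while its other probe set gave 0.01 ± 0.04. Tcp1 measured 13.51 and 13.46 in BMP3 arrays and 13.10 and 13.27 in control arrays (difference 0.30 ± 0.08, limma unadjusted p = 0.0262). Cct3 measured 13.32 and 13.56 in BMP3 arrays and 12.71 and 13.18 in control arrays (difference 0.50 ± 0.22). The Cct3 difference was 0.26 without control replicate 1, its low array, and 0.13 with all its probe sets averaged. That average takes in dim Cct3 probe sets, with means of 3.60, 2.54 and 2.44. Of the 3 other Cct3 probe sets averaging 6 or more, 2 gave 0.35 and the dimmest -0.29 ± 0.27. All 3 are named as ones that can share probes with other sequences. These 3 subunits had both BMP3 arrays above both control arrays, and Cct4 and Cct2 had both below.

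Cct4 measured 15.43 and 15.33 in BMP3 arrays and 15.58 and 15.61 in control arrays (difference -0.22 ± 0.06, limma unadjusted p = 0.0271, adjusted p = 0.489). Cct2 measured 15.13 and 14.94 in BMP3 arrays and 15.15 and 15.41 in control arrays (difference -0.24 ± 0.13). For both genes other probe sets turned the sign. The brightest Cct4 probe set is named as one that can share probes with other sequences, and the brightest one without that mark gave 0.04 ± 0.15. The other probe sets of Cct2 gave 0.13 ± 0.14 and 0.06 ± 0.04. Cct5 and Cct8 had -0.02 ± 0.08 and -0.01 ± 0.14, and the median over the 7 subunits was -0.01.

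All 7 J proteins, which deliver clients to HSP70 and stimulate its ATPase, had differences above 0 at their brightest probe sets, with a median of 0.11. Of the brighter genes 53.3% had such a difference, and the groups overlapped for 6 of the 7 J proteins. Only for Dnajc3 did every probe set averaging 6 or more lie above 0. Dnaja2, a cytosolic partner of Hspa8, measured 13.44 and 13.51 in BMP3 arrays and 13.31 and 13.27 in control arrays (difference 0.18 ± 0.05, limma unadjusted p = 0.0282). Its 4 probe sets did not share a sign, from -0.22 to 0.32, and the brightest one not marked as sharing probes gave -0.14 ± 0.12. Dnajb1, the classical inducible HSP40, measured 11.72 and 12.07 in BMP3 arrays and 11.61 and 11.95 in control arrays. Replicate 2 was higher than replicate 1 in both groups by more than the groups differed (0.12 ± 0.19). The same held for Dnajc3, an endoplasmic reticulum J protein that is part of the unfolded protein response (0.04 ± 0.29). Dnaja1 and Dnajb4 had 0.11 ± 0.13 and 0.08 ± 0.10 at their brightest probe sets. Another Dnaja1 probe set, named as one that can share probes, gave -0.41 ± 0.11 (limma unadjusted p = 0.029), and one more gave 0.32 ± 0.15. For Dnajb4 the next probe set gave -0.27 ± 0.08 (limma unadjusted p = 0.0377). In both of these lower probe sets the BMP3 arrays were below both control arrays.

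Dnajb6, a J protein that suppresses aggregation and is made in several isoforms, stood out by its probe sets. The brightest measured 12.96 and 12.74 in BMP3 arrays and 12.87 and 12.83 in control arrays, with overlapping groups and a difference of 0.01 ± 0.09. Another measured 8.74 and 8.94 in BMP3 arrays and 9.78 and 9.87 in control arrays, a difference of -0.98 ± 0.09 (limma unadjusted p = 0.00146, adjusted p = 0.253). One more probe set gave 0.28 ± 0.13. The probe set with lower values was singled out after its values were seen, and which Dnajb6 transcripts each probe set detects was not examined here.

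**Figure D3:**
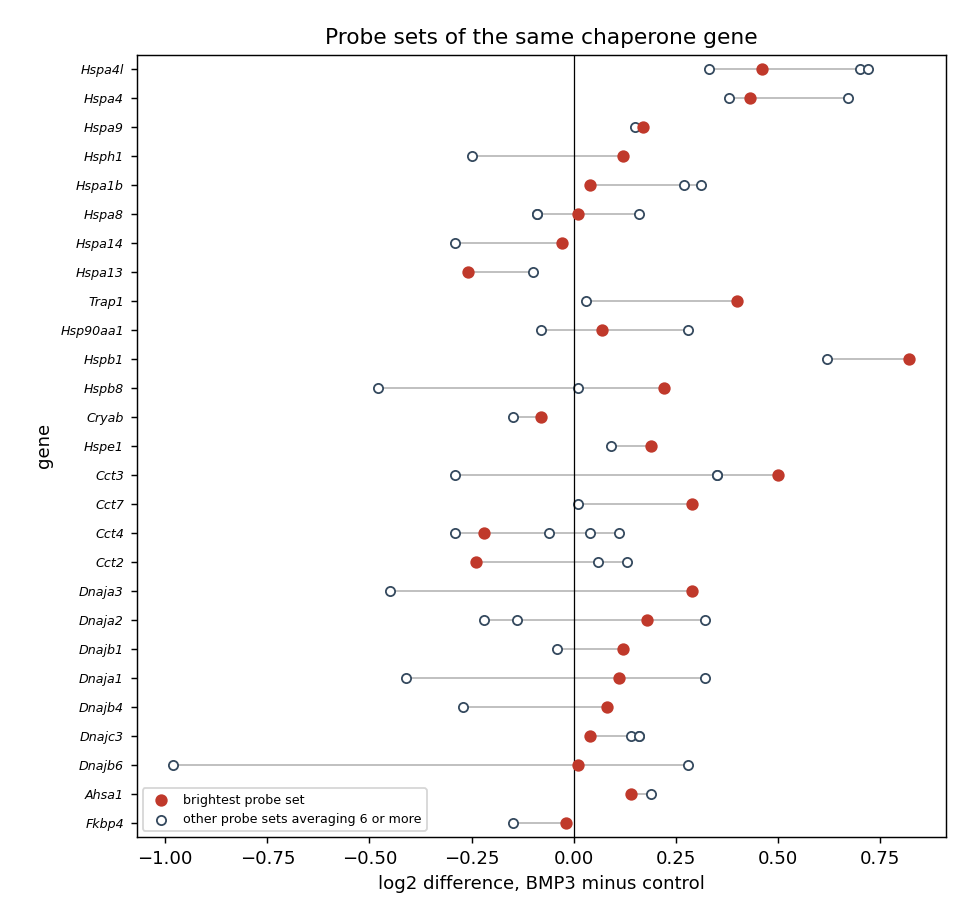
Log2 difference, BMP3 minus control, of every probe set averaging 6 or more for the 27 chaperone genes with at least 2 of them; red points are the brightest probe set of a gene, open points its other probe sets, and grey lines join them. Every such probe set lies above 0 for 10 genes and below 0 for 4, and 13 genes have probe sets on both sides, Dnajb6 with the widest spread (-0.98 to 0.28).

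Small heat shock proteins hold unfolding proteins without using ATP, and Hspb1 had the largest difference of all members but also a wide spread. Hspb1 measured 7.73 and 8.55 in BMP3 arrays and 7.05 and 7.59 in control arrays. Both BMP3 arrays lay above both control arrays, with BMP3 replicate 1 only just above control replicate 2, and the difference was 0.82 ± 0.39 (interval -0.39 to 2.02, limma unadjusted p = 0.124). Leaving out BMP3 replicate 2 gave 0.40, and leaving out BMP3 replicate 1 gave 1.23. Its second probe set measured 6.06 and 7.18 in BMP3 arrays and 6.00 and 6.01 in control arrays, so BMP3 replicate 2 alone stood apart there. Hspb8 had 0.22 ± 0.24 at its brightest probe set and -0.48 ± 0.11 at the next. Cryab, which encodes alpha-B crystallin, measured 11.79 and 11.77 in BMP3 arrays and 11.91 and 11.82 in control arrays (difference -0.08 ± 0.05), the third member with both BMP3 arrays below both control arrays.

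BAG proteins release nucleotide from HSP70, and the stress-inducible Bag3, which works with Hspb8 in selective autophagy, had the largest difference among them. Bag3 measured 11.49 and 10.91 in BMP3 arrays and 10.70 and 10.59 in control arrays (difference 0.55 ± 0.24, limma unadjusted p = 0.0968). BMP3 replicate 1 was the high array, and the difference was 0.26 without it and 0.84 without BMP3 replicate 2. Bag2, which inhibits the ubiquitin ligase CHIP, had 0.27 ± 0.24 with overlapping groups, and leaving out BMP3 replicate 2 gave 0.02, while leaving out BMP3 replicate 1 gave 0.53. Bag1 had 0.01 ± 0.03 (interval -0.10 to 0.12). Hsf2, the measured heat shock factor, was dim, with means of 5.13 ± 0.19 in BMP3 arrays and 5.52 ± 0.57 in control arrays (SD, n = 2 each) and overlapping groups.

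By class, the median difference was 0.12 for the 10 HSP70 and HSP110 genes, 0.23 for 2 HSP90 genes, 0.22 for 3 small heat shock genes, 0.24 for HSP60 and HSP10, -0.01 for TRiC, 0.11 for J proteins, 0.27 for BAG proteins and 0.14 for 5 HSP90 co-chaperones. Single arrays set several of these. The small heat shock median was -0.04 without BMP3 replicate 1, the BAG median 0.02 and the HSP90 co-chaperone median 0.01 without BMP3 replicate 2, and the HSP70 median 0.02 without control replicate 1. The small heat shock median was also -0.08 when all probe sets of a gene, dim ones included, were averaged, and the J protein median 0.00. The medians of HSP90 and of HSP60 with HSP10 stayed between 0.16 and 0.32 whichever array was left out. With all probe sets averaged, however, that of HSP90 was 0.14. The measured HSP90 class is only Hsp90aa1 at 0.07 and Trap1 at 0.40, and the second Trap1 probe set gave 0.03.

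**Figure D4:**
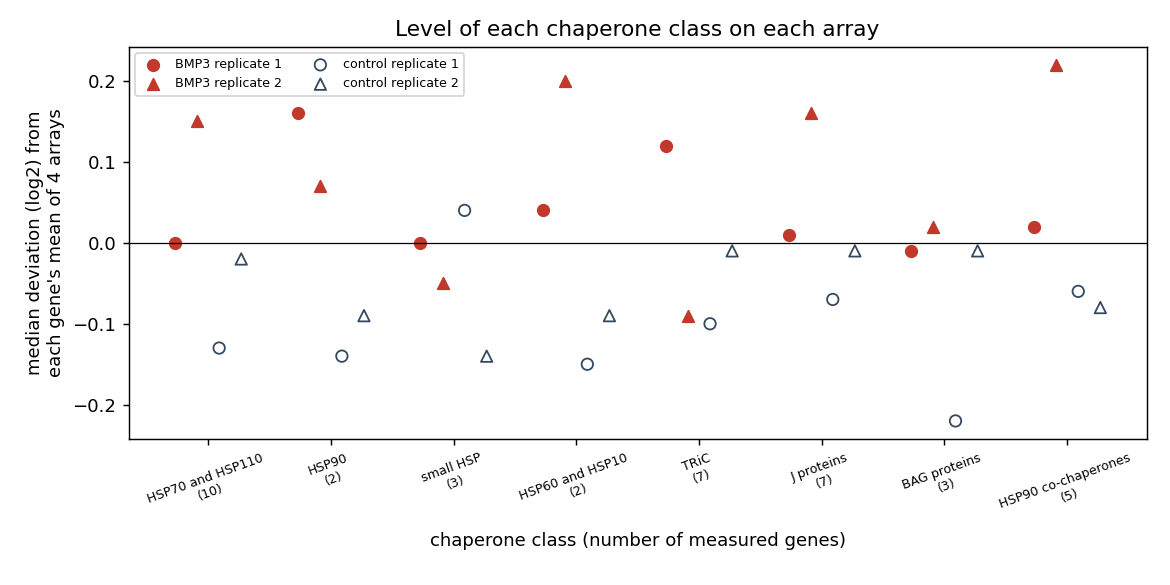
Median deviation (log2) of the measured genes of each chaperone class on each array from each gene's mean of 4 arrays, with the number of genes in parentheses; red filled symbols are BMP3 and blue open symbols control arrays, circles replicate 1 and triangles replicate 2, and Hsf2 alone is not shown. Both BMP3 arrays lie above both control arrays for HSP70 and HSP110, HSP90, HSP60 and HSP10, J proteins and HSP90 co-chaperones. The groups overlap for small heat shock genes and TRiC, and for BAG proteins BMP3 replicate 1 and control replicate 2 both lie at -0.01.

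The replicate numbers of the titles may or may not mark a shared day, so the treatment difference was also read at each number. It was above 0 at both numbers for 22 members (55%) and below 0 at both for 6 (15%), against 38% and 33.3% of the brighter genes and 25.4% and 29.2% of all genes. The median member difference was 0.09 at number 1 and 0.18 at number 2. Stip1 had 0.52 and 0.50, Hspa1a 0.65 and 0.61, and Hspd1 0.30 and 0.28 at numbers 1 and 2, nearly equal values, whereas Cct8 had 0.23 and -0.25. Replicate 2 exceeded replicate 1 in both groups for Hspb1, Hsph1, Dnajb1, Dnajc3 and Bag2, among other members. Same-numbered arrays also deviated together across the 17152 probe sets averaging 6 or more (r = 0.596), so this need not be particular to chaperone genes.

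Neighbouring parts of protein quality control were described in the same way. Of the brighter genes, 9.87% were higher and 8.33% lower at an unadjusted p under 0.05 by limma. Over all genes these shares were 5.28% and 4.52%. Of 43 measured other cytosolic chaperones and co-chaperones, 2 had an unadjusted p under 0.05 and were higher and 2 were lower, with a median of 0.02. Hspb6, a small heat shock gene of muscle, measured 9.62 and 9.77 in BMP3 arrays and 9.22 and 8.96 in control arrays (difference 0.60 ± 0.12), and the phosphatase gene Ppp5c, a partner of HSP90, had 0.18 ± 0.05. Pfdn5 and Vbp1, subunits of prefoldin, which hands actin and tubulin to TRiC, had -0.22 ± 0.04 and -0.18 ± 0.04. Each of these 4 genes separated the groups, and the smallest adjusted p of the list was 0.381.

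Of 13 mitochondrial chaperones and proteases, 2 were lower at an unadjusted p under 0.05, namely Clpx, the unfoldase of the ClpP protease (-0.36 ± 0.06), and the iron-sulfur cluster J protein gene Hscb (-0.53 ± 0.12), and 0 were higher, with a median of 0.08. Of the brighter genes 8.33% were lower and 9.87% higher at that threshold. Clpx and Hscb stood opposite in sign to Hspd1, Hspe1 and Trap1, but 8 of the 13 genes had differences above 0 and 5 below. Of the brighter genes, 53.3% and 46.7% did. Both BMP3 arrays were above both control arrays for 4 of the 13 and below for 2, against 26.1% and 21.7% of the brighter genes. Of 16 endoplasmic reticulum chaperones, 14 had differences above 0, against 53.3% of the brighter genes, with a median of 0.20. However, 0 of the 16 had an unadjusted p under 0.05, and Pdia4 and Pdia6, protein disulfide isomerases, had 0.43 ± 0.27 and 0.32 ± 0.19. Both BMP3 arrays lay above both control arrays for only 2 of the 16 and below for 0, and the groups overlapped for 14. Of the brighter genes, 26.1% lay above and 21.7% below. The median of the 16 was 0.05 at replicate number 1 and 0.25 at number 2. Of 28 proteasome and ubiquitin genes, 4 were higher and 0 lower at an unadjusted p under 0.05, against 9.87% and 8.33% of the brighter genes. The median of the 28 was 0.16. The 4 higher genes were Vcp, a segregase that extracts ubiquitinated proteins (0.31 ± 0.06), and the proteasome subunit genes Psmd1 (0.45 ± 0.12), Psmb3 (0.33 ± 0.09) and Psmd11 (0.30 ± 0.09). Both BMP3 arrays lay above both control arrays for 15 of these 28 genes and below for 1, where the shares over the brighter genes were 26.1% and 21.7%.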

How the data were processed

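The values are 1 log2 intensity per probe set and array, as deposited by the authors; the log2 scale was inferred from their range. Partek appears in the submitters' processing notes without a version. Background correction, normalization and probe summary are not given in the sources. A normalization that equalises arrays would hide a shift of most transcripts. Groups and replicate numbers came from the sample titles. After 64 control probe sets were left out, 45037 were fitted with limma 3.58.1 (R 4.3.3; lmFit, eBayes, two-sided, 1.18 prior degrees of freedom), with no filter on dim probe sets and no replicate term, and Benjamini-Hochberg adjustment at 0.05. The 2 arrays per group limit the precision. Gene symbols came from the platform annotation, in which 34945 probe sets had 1 symbol and 932 several; a probe set with several named no gene. Promoters came from RefSeq tables (GRCm38.p6). The fit was tested on simulated data. Members and lists were chosen with earlier results of these data known. Every member may be named; of each neighbouring list, up to 4 genes with an unadjusted p under 0.05, or otherwise the 2 of smallest p. Same-numbered arrays deviated together (r = 0.596 across 17152 probe sets), but 2 pairs and silent labels do not settle a pairing. Alternatives were the replicate block, each array left out, 3 normalizations, a filter, an offset, a variance trend, all probe sets averaged and, chosen after seeing the data, probe sets not marked as sharing probes.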

Additional observations from a re-analysis of the deposited data

How the results depend on the processing

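The number of arrays, 2 a group, limits the precision of every difference, and the normalization is not stated. Under all 13 alternatives 0 members had an adjusted p under 0.05 by limma (9 at an unadjusted p under 0.05). That looser count was 14 with the replicate block, 4 with probe sets averaging 6 or more, and 5 to 12 with an array left out. The count that also asks for a 1.5-fold difference was 2 with the replicate block, 0 with an offset of 16, and 1 to 2 with an array left out. With an array left out, the median over members ran from 0.07 to 0.24, that of HSP70 and HSP110 from 0.02 to 0.21, of small heat shock genes from -0.04 to 0.40, of TRiC from -0.10 to 0.12, of J proteins from 0.05 to 0.22, of BAG proteins from 0.02 to 0.42 and of HSP90 co-chaperones from 0.01 to 0.28. Averaging all probe sets took in dim ones too. The medians were then 0.06 over members, 0.14 for HSP90, -0.08 for small heat shock genes, 0.00 for J proteins and 0.31 for HSP90 co-chaperones. Of 40 members, 18 kept their direction under every alternative run and 22 did not. The replicate block, the filter and the variance trend leave each difference as it was, so they could not turn a direction. For members with 1 probe set, among them Stip1, Hspa1a, Hspd1 and Tcp1, the choices of probe set could not do so either. Of the 18, 7 moved by 1.5 times or less whichever array was left out (Stip1, Hspa4l, Hspa1a, Trap1, Hspd1, Tcp1 and Cct7). The other 11 moved by more, from 0.05 to 0.28 for Hspa9, -0.50 to -0.03 for Hspa13, 0.24 to 0.61 for Hspa4, 0.40 to 1.23 for Hspb1, -0.12 to -0.03 for Cryab, 0.10 to 0.28 for Hspe1, -0.37 to -0.11 for Cct2, 0.26 to 0.73 for Cct3, 0.02 to 0.53 for Bag2, 0.26 to 0.84 for Bag3 and 0.18 to 0.45 for Chordc1. With all probe sets averaged, Cct7 had 0.15, Cct3 0.13 and Trap1 0.21. The cause was not tested. With an array left out, differences ran from -0.03 to 0.12 for Hspa1b, -0.06 to 0.30 for Hspa2, -0.03 to 0.05 for Hspa8, -0.17 to 0.11 for Hspa14, -0.19 to 0.42 for Hsph1, -0.04 to 0.47 for Hspb8, -0.10 to 0.06 for Cct5, -0.15 to 0.12 for Cct8, -0.05 to 0.26 for Dnaja1, -0.05 to 0.29 for Dnajb1, -0.04 to 0.19 for Dnajb4, -0.10 to 0.12 for Dnajb6, -0.27 to 0.35 for Dnajc3, -0.01 to 0.28 for Ahsa1, -0.13 to 0.01 for Cdc37, -0.16 to 0.13 for Fkbp4 and -0.79 to 0.01 for Hsf2. Under cyclic loess, Hsp90aa1 had -0.01, Hspa1b -0.01, Bag1 -0.03, Dnajb6 -0.03 and Hspa8 -0.09. Under quantile normalization, Bag1 had -0.02, Dnajb6 -0.02 and Hspa8 -0.04. Under median centring, Hspa14 had 0.01, and Cct5, Cct8 and Fkbp4 each had 0.02. With all probe sets averaged, Dnaja3 had -0.05, Hsph1 -0.07, Dnajb4 -0.08, Hspb8 -0.08, Dnajb6 -0.12, Hspa8 0.00 and Cdc37 0.45. The Cdc37 value, which also enters the HSP90 co-chaperone median, includes a dim probe set averaging 4.25 that gave 0.96 ± 0.36. With probe sets not marked as sharing probes, Hspa8 had -0.09, Dnaja2 -0.14 and Cct4 0.04.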
